A study of Mus musculus with 16 samples.

Results

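The immunoproteasome is the form of the proteasome that cells assemble under interferon-gamma, and 5 of its inducible genes and the 3 constitutive genes they stand against were followed in epididymal white adipose tissue (eWAT) of db/db mice. The 8 were chosen by gene symbol, out of 55573 genes in the count table. They are the 3 inducible catalytic subunits Psmb8 (LMP7), Psmb9 (LMP2) and Psmb10 (MECL-1), the 2 inducible PA28 activator subunits Psme1 and Psme2, and the 3 constitutive catalytic subunits that the inducible ones replace, Psmb5, Psmb6 and Psmb7. All 8 had enough counts to be tested.

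The tissue came from 4 groups of 4 C57BLKS/J-Lepr db/db males, which makes 16 libraries. They were AAV8-LRG1-FL at week 7, AAV8-eGFP at week 7, AAV8-LRG1-FL at week 10 and AAV8-eGFP at week 10, where the week is the age of the animal. LRG1 is a secreted glycoprotein of leucine-rich repeats, and the study asked what its overexpression does to adipose tissue in a model of obesity and type 2 diabetes. All mice, the eGFP controls included, were homozygous for the db mutation of the leptin receptor, ate chow and had been injected with virus through the retro-orbital route at 4 weeks of age. AAV8 reaches the liver as well as adipose tissue, and the vector promoter (CB7) is not restricted to adipocytes, so the origin of the LRG1 protein is not set by cell type. Levels are given as CPM, counts brought to a common library total that was first scaled by TMM factors.

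The proteasome is a barrel of alpha and beta subunits that degrades proteins in the cytosol and nucleus. Its peptidase sites lie in the beta rings. Psmb5 carries the chymotrypsin-like site, Psmb6 the caspase-like site and Psmb7 the trypsin-like site. Cells exposed to interferon-gamma make Psmb8 in place of Psmb5, Psmb9 in place of Psmb6 and Psmb10 in place of Psmb7, and the peptides released then suit presentation on MHC class I. PA28, a ring of Psme1 and Psme2, caps the barrel and opens its gate. Leukocytes hold much of the immunoproteasome in the absence of any stimulus, and adipose tissue in obesity gathers leukocytes, so that in whole tissue a change of these RNAs can come from fewer leukocytes or from less RNA per cell. In bulk tissue these cannot be told apart.

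The 8 genes lie on 5 chromosomes (GRCm38, GENCODE M21). Psmb8 (chr17:34197721-34201454, plus strand) and Psmb9 (chr17:34181987-34187764, minus strand) are neighbours in the class II region of the major histocompatibility complex. Psmb10 is at chr8:105935735-105938444 (minus strand), Psme1 at chr14:55578123-55581529 (plus strand) and Psme2 close by at chr14:55587441-55591113 (minus strand). Of the constitutive genes, Psmb5 is at chr14:54614119-54618022 (minus strand), Psmb6 at chr11:70525367-70527858 (plus strand) and Psmb7 at chr2:38588036-38644087 (minus strand). Some of their exons are shared with other genes. Psmb8 shares 498 exonic bases (14.7%) with Gm20496, Psmb9 shares 212 bases (5.79%) with the peptide transporter gene Tap1, Psmb5 shares 109 bases (12.1%) with Mir686 and Psmb7 shares 405 bases (11.8%) with Nek6. The strand setting of the counting is not given in the sources used here, so reads from these shared stretches cannot be assigned to one gene.

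The stretches before the starts of members that moved together, and of members that did not move, are shown for the letters they hold. Sequences are from RefSeq (GRCm38.p6), in windows of 250 bases before and 50 bases after each start, and 7 of the 8 genes had a window. The 5 motifs searched, on both strands, were chosen after the windows had been read. TTCNNNGAA, the core of the interferon-gamma activated site, was in 8.30% of all 32851 windows. It was in the window of Psmb8, at position -97 from the RefSeq start, in a stretch that GENCODE annotates as untranslated exon. The capitals mark the match.
Psmb8 (chr17:34198088-34198117, plus strand): tcctccgctgTTCCCAGAAgatgccccccc
GAAANNGAAA, the core of the interferon-stimulated response element, was in 3.44% of windows. It was in the window of Psme1 on the opposite strand, from position 10 after the start, so that the capitals read as its complement. This stretch too is annotated by GENCODE as untranslated exon.
Psme1 (chr14:55578493-55578522, plus strand): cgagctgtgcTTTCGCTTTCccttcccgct
Psmb9 held neither of these motifs, but held GGGGCGGGGC, a GC box, which was in 7.01% of windows. It lay at position -56 from the RefSeq start, again in a stretch that GENCODE annotates as untranslated exon. Psmb9 and Tap1 are transcribed away from each other, with RefSeq starts 226 bases apart.
Psmb9 (chr17:34187367-34187396, minus strand): gcgcgatgatGGGGCGGGGCctcagtctgc
Psmb10 held TTCNNNNGAA, the same letters with a wider gap, which was in 6.95% of windows. The stretch shown is the part of its window before every annotated exon.
Psmb10 (chr8:105938445-105938642, minus strand): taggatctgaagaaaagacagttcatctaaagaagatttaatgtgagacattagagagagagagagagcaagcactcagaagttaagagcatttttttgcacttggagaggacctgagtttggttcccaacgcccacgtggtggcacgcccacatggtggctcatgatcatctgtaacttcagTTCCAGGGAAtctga
Of the constitutive genes, Psmb5 and Psmb6 each held TGACNNNGC, the core of the antioxidant response element that NRF transcription factors bind, which was in 12.4% of windows. None of the 5 inducible genes held it, and Psmb7 had no window. As the motif was chosen after the windows had been read, no difference between the inducible and constitutive genes is drawn from it.
Psmb5 (chr14:54618023-54618245, minus strand): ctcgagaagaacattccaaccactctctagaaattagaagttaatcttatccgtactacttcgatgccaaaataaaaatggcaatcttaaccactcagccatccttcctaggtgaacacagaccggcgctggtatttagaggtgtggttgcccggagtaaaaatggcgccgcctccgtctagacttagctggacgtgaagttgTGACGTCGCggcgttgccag
Psmb6 (chr11:70525107-70525356, plus strand): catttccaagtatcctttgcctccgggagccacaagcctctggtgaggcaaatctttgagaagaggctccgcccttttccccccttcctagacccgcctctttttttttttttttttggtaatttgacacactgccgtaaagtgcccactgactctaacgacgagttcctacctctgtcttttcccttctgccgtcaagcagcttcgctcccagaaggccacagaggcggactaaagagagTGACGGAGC
Psme2 held none of the 5 motifs. A match is a run of letters and not a shown binding site.

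Each library held between 45376227 and 67539937 counts. The label check held in all libraries, since Lrg1 was at 288 to 478 CPM in LRG1 mice and at 86.2 to 110.2 CPM in eGFP mice at week 7, and at 286 to 624 CPM and 99.6 to 115 CPM in LRG1 and eGFP mice at week 10. The tissue label was checked with Adipoq, the gene of adiponectin, which was at 409 to 1539 CPM over the 16 libraries, and with 8 markers of epididymis and testis, which summed to at most 0.468 CPM in any library. A pair of eGFP libraries of week 10 stood apart. Mice 1 and 3 of that group had Ptprc (CD45, carried by leukocytes) at 364 and 373 CPM and Adipoq at 409 and 546 CPM, whereas mice 2 and 4 had Ptprc at 154 and 176 CPM and Adipoq at 1379 and 1144 CPM. Some members and lists that moved when mice 1 and 3 were left out are also given without them, a setting chosen after seeing the data.

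In LRG1 mice of week 7 all 5 inducible genes fell and none of the 3 constitutive genes passed the test. Psmb9 and Psmb8 were about 7.04-fold and 6.55-fold lower than in eGFP mice, Psmb10 was 3.51-fold lower, and the PA28 subunits Psme2 and Psme1 were 1.95-fold and 1.72-fold lower. By comparison, 10.7% of the 20822 genes tested fell at this week (edgeR quasi-likelihood test, Benjamini-Hochberg adjusted p below 0.01), and the median log2 fold change of all genes was 0.01, against -1.81 for the inducible and -0.03 for the constitutive genes.

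Psmb8, the inducible counterpart of Psmb5, was at 8.51, 11.3, 7.10 and 8.70 CPM in LRG1 mice of week 7 and at 66.5, 55.4, 48.6 and 63.0 CPM in eGFP mice. The highest LRG1 library lay far below the lowest eGFP library. Its log2 fold change was -2.71 (SE 0.14, adjusted p = 2.6e-08), and by unadjusted p it ranked 1 of 20822 genes. Psmb9, the inducible counterpart of Psmb6, was at 3.09, 4.71, 3.20 and 3.55 CPM in LRG1 mice and at 32.3, 23.8, 17.8 and 28.6 CPM in eGFP mice. Its log2 fold change was -2.82 (SE 0.20, adjusted p = 1.6e-07). The eGFP mice differed among themselves, with mouse 3 lowest for both genes. Psmb10, the inducible counterpart of Psmb7, was at 12.05, 15.8, 12.99 and 15.04 CPM in LRG1 mice and at 52.2, 51.3, 39.7 and 52.8 CPM in eGFP mice. It fell by 1.81 on the log2 scale (SE 0.11, adjusted p = 5.0e-08) and ranked 4 by unadjusted p.

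The PA28 subunits moved less than the catalytic subunits. Psme1, the alpha subunit of PA28, was at 68.5, 73.8, 75.9 and 72.0 CPM in LRG1 mice of week 7 and at 137, 126, 106 and 129 CPM in eGFP mice (log2 fold change -0.78, SE 0.09, adjusted p = 2.7e-05). Psme2, the beta subunit, was at 26.0, 30.4, 29.4 and 28.6 CPM in LRG1 mice and at 59.2, 56.8, 48.0 and 58.8 CPM in eGFP mice (log2 fold change -0.96, SE 0.07, adjusted p = 3.2e-07). For all 5 inducible genes the LRG1 and eGFP libraries did not overlap, which held in the lower direction for 19.4% of all genes tested. The near-identical gene Psme2b was counted at 0.715 to 3.03 CPM over the 16 libraries, and how reads that fit both genes were counted is not given in the sources used here.

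**Figure D1:**
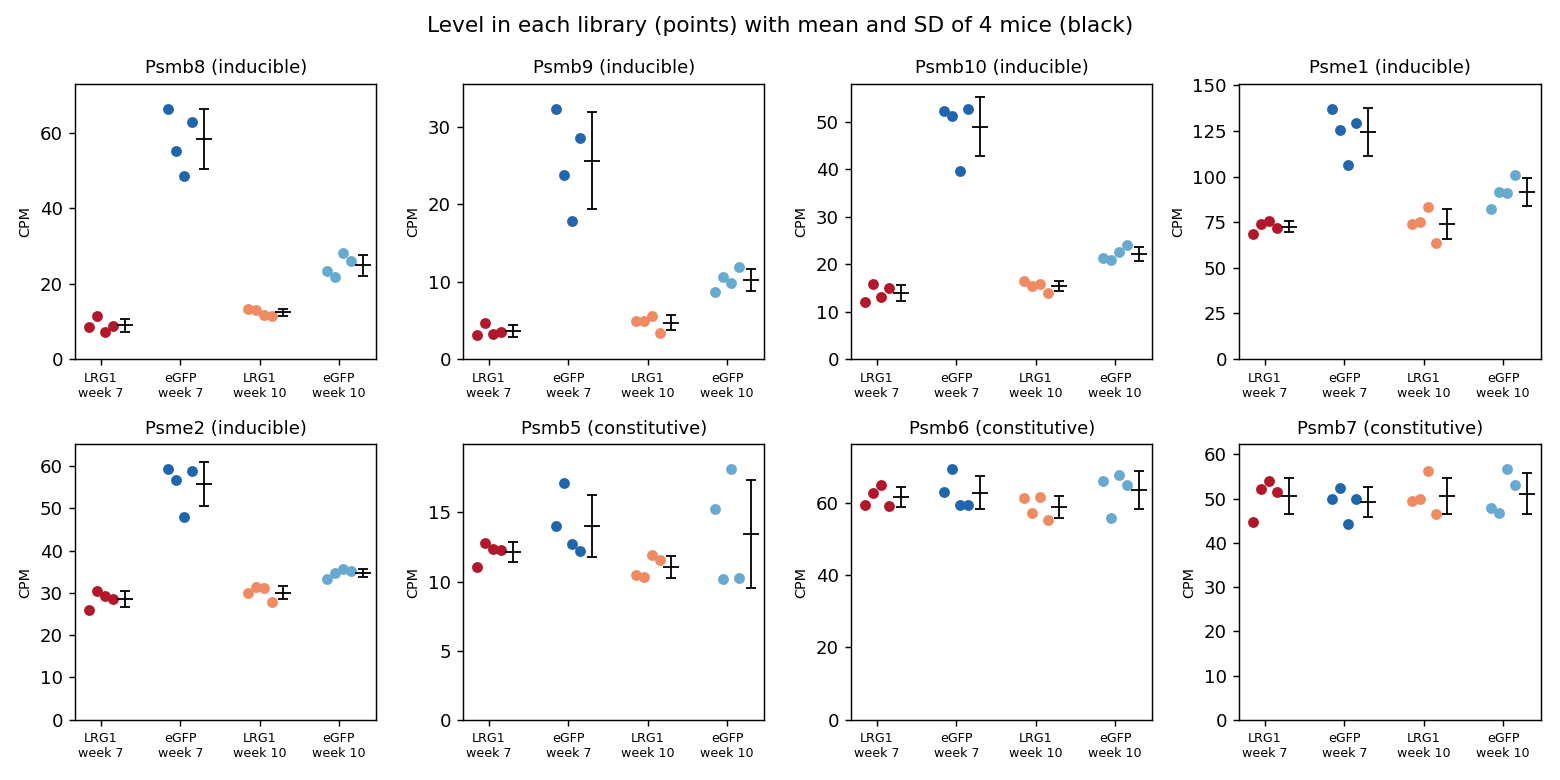
CPM of the 8 genes in each library (points) for LRG1 and eGFP mice of week 7 and of week 10, with the mean and SD of the 4 mice of a group in black. The 5 inducible genes are highest in eGFP mice of week 7, where Psmb8 is at 48.6 to 66.5 CPM, while the groups of Psmb5, Psmb6 and Psmb7 overlap.

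The constitutive genes overlapped between the groups. Psmb5 was at 11.1, 12.8, 12.4 and 12.3 CPM in LRG1 mice of week 7 and at 14.01, 17.2, 12.7 and 12.2 CPM in eGFP mice (log2 fold change -0.21, SE 0.16, adjusted p = 0.35). Psmb6 was at 59.5, 62.7, 64.9 and 59.1 CPM in LRG1 mice and at 63.1, 69.3, 59.4 and 59.5 CPM in eGFP mice (log2 fold change -0.03, SE 0.07, adjusted p = 0.79). Psmb7 was at 44.6, 52.2, 53.9 and 51.4 CPM in LRG1 mice and at 50.01, 52.5, 44.4 and 49.8 CPM in eGFP mice (log2 fold change 0.04, SE 0.08, adjusted p = 0.76). None of the 3 was below 0.05 by unadjusted p, and neither DESeq2 nor limma-voom called any. The 95% intervals bound what could have been missed, at -0.55 to 0.13 for Psmb5, -0.19 to 0.13 for Psmb6 and -0.14 to 0.22 for Psmb7 on the log2 scale. The share of lower calls among all genes depended on scaling, with 2221 lower and 1534 higher genes under TMM, and 3636 lower and 341 higher genes under raw library totals. Under raw totals the median over all genes shifted to -0.15 and Psmb7 turned to -0.12, not called, while the same 5 of the 8 genes were called.

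At week 10 the 3 inducible catalytic subunits were again lower in LRG1 mice, by smaller folds, and the PA28 subunits did not pass the test. Psmb8 was 2.01-fold lower, Psmb9 2.17-fold lower and Psmb10 1.44-fold lower. That made 3 of 5 inducible and 0 of 3 constitutive genes lower, where 5.24% of all genes fell. The median log2 fold change was -0.53 for the inducible genes and -0.11 for the constitutive genes, against -0.0047 for all genes. Without eGFP mice 1 and 3 the share of all genes that fell was 0.338% (74 of 21872), and 2 of the 5 inducible genes were called, Psmb8 (-0.95, adjusted p = 0.0057) and Psmb9 (-1.26, adjusted p = 0.0071).

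Psmb8 was at 13.3, 12.96, 11.7 and 11.5 CPM in LRG1 mice of week 10 and at 23.3, 21.8, 28.3 and 26.1 CPM in eGFP mice (log2 fold change -1.01, SE 0.13, adjusted p = 8.6e-04). Psmb9 was at 4.96, 4.96, 5.59 and 3.32 CPM in LRG1 mice and at 8.63, 10.6, 9.78 and 11.9 CPM in eGFP mice (log2 fold change -1.12, SE 0.19, adjusted p = 0.0020). Psmb10 was at 16.5, 15.3, 15.9 and 13.9 CPM in LRG1 mice and at 21.3, 20.8, 22.5 and 24.1 CPM in eGFP mice (log2 fold change -0.53, SE 0.10, adjusted p = 0.0035). In each of these genes every LRG1 library lay below every eGFP library, as in 10.1% of all genes. Psmb10 is the least settled of them. It was not called without eGFP mouse 3 (adjusted p = 0.012), LRG1 mouse 3 (0.011) or LRG1 mouse 4 (0.017), nor when eGFP mice 1 and 3 were both left out (adjusted p = 0.024).

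Psme1 was at 74.1, 74.9, 83.5 and 63.4 CPM in LRG1 mice of week 10 and at 82.3, 91.5, 91.2 and 101 CPM in eGFP mice, and LRG1 mouse 3 lay above eGFP mouse 1 (log2 fold change -0.31, SE 0.09, adjusted p = 0.027). Psme2 was at 29.9, 31.3, 31.2 and 27.9 CPM in LRG1 mice and at 33.3, 34.6, 35.8 and 35.2 CPM in eGFP mice (log2 fold change -0.21, SE 0.07, adjusted p = 0.055). Its libraries did not overlap, but the difference was small. Psmb5 was at 10.4, 10.3, 11.9 and 11.6 CPM in LRG1 mice and at 15.3, 10.2, 18.1 and 10.3 CPM in eGFP mice. Relative to its mean, it showed the widest spread of the 8 genes among the eGFP mice of this week. Its high libraries were eGFP mice 1 and 3. The log2 fold change of Psmb5 was -0.28 (adjusted p = 0.23), and 0.12 without these mice. Psmb6 was at 55.3 to 61.7 CPM in LRG1 mice and at 55.8 to 67.8 CPM in eGFP mice (log2 fold change -0.11, adjusted p = 0.30), and Psmb7 at 46.6 to 56.2 CPM in LRG1 mice and at 46.8 to 56.6 CPM in eGFP mice (log2 fold change -0.02, adjusted p = 0.91). No constitutive gene was below 0.05 by unadjusted p or was called by DESeq2 or limma-voom.

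Between the weeks, the inducible genes fell in eGFP mice and were not called in LRG1 mice. In eGFP mice of week 10 compared with week 7, Psmb9 was 2.50-fold lower, Psmb8 2.35-fold lower, Psmb10 2.21-fold lower, Psme2 1.60-fold lower and Psme1 1.36-fold lower. All 5 passed the test and 0 of 3 constitutive genes did, and 1.51% of all genes fell. Without eGFP mice 1 and 3 of week 10 the share of all genes that fell was 5.24% (1146 of 21872). The week 10 and week 7 libraries did not overlap for any of the 5, as for 6.89% of all genes in the lower direction. The log2 fold changes were -1.32 for Psmb9 (SE 0.19, adjusted p = 7.3e-04), -1.23 for Psmb8 (SE 0.13, adjusted p = 9.2e-05), -1.14 for Psmb10 (SE 0.10, adjusted p = 3.0e-05), -0.68 for Psme2 (SE 0.07, adjusted p = 1.0e-04) and -0.45 for Psme1 (SE 0.09, adjusted p = 0.0096). The median was -1.14 for the inducible genes, 0.02 for the constitutive genes and -0.01 for all genes. The call of Psme1 was lost when eGFP mouse 1, 2 or 4 of week 7 or mouse 1, 2 or 3 of week 10 was left out (adjusted p = 0.018 to 0.041), and without mice 1 and 3 of week 10 together, where 4 of 5 inducible genes were called (adjusted p of Psme1 = 0.022). Psmb5 was then at -0.46 (adjusted p = 0.016), not called, against -0.06 with all libraries.

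In LRG1 mice no member was called between week 10 and week 7, and of all genes only 2 were (0.00961%). Psmb8 was nearest, with all 4 week 10 libraries (11.5 to 13.3 CPM) above all 4 week 7 libraries (7.10 to 11.3 CPM), as in 3.64% of all genes, and a log2 fold change of 0.47 (SE 0.13, unadjusted p = 0.0026, adjusted p = 0.31). It was the only one of the 8 genes below 0.05 by unadjusted p, and neither DESeq2 nor limma-voom called any of them. The other inducible genes had log2 fold changes of 0.37 (Psmb9), 0.14 (Psmb10), 0.03 (Psme1) and 0.07 (Psme2). By group means all 5 inducible genes were highest in eGFP mice of week 7, next in eGFP mice of week 10, then in LRG1 mice of week 10, and lowest in LRG1 mice of week 7.

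The LRG1 effect itself differed between the weeks for 4 of the 5 inducible genes. The interaction term, the log2 fold change of week 10 minus that of week 7, was 1.70 for Psmb8 (SE 0.19, adjusted p = 4.7e-04), 1.70 for Psmb9 (SE 0.27, adjusted p = 0.0051), 1.29 for Psmb10 (SE 0.15, adjusted p = 4.7e-04) and 0.76 for Psme2 (SE 0.10, adjusted p = 0.0014). Of all genes 0.307% had a positive term that passed. With mice 1 and 3 of eGFP week 10 left out this share was 1.3% (284 of 21872), and the same 4 genes were called, at 1.76, 1.56, 1.27 and 0.75 in the order above. Psme1 had 0.47 (SE 0.13, adjusted p = 0.12), and the constitutive genes had -0.07 (Psmb5), -0.08 (Psmb6) and -0.06 (Psmb7), none of them called. All 5 inducible genes were below 0.05 by unadjusted p, and 0 of 3 constitutive genes were. The call of Psmb9 was the least settled, since leaving out any one of 11 libraries gave adjusted p of 0.010 to 0.019. These were mice 1, 3 and 4 of LRG1 week 7, mice 1, 2 and 4 of eGFP week 7, mice 1, 2 and 3 of LRG1 week 10 and mice 1 and 3 of eGFP week 10. Limma-voom also left it out (adjusted p = 0.022).

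**Figure D2:**
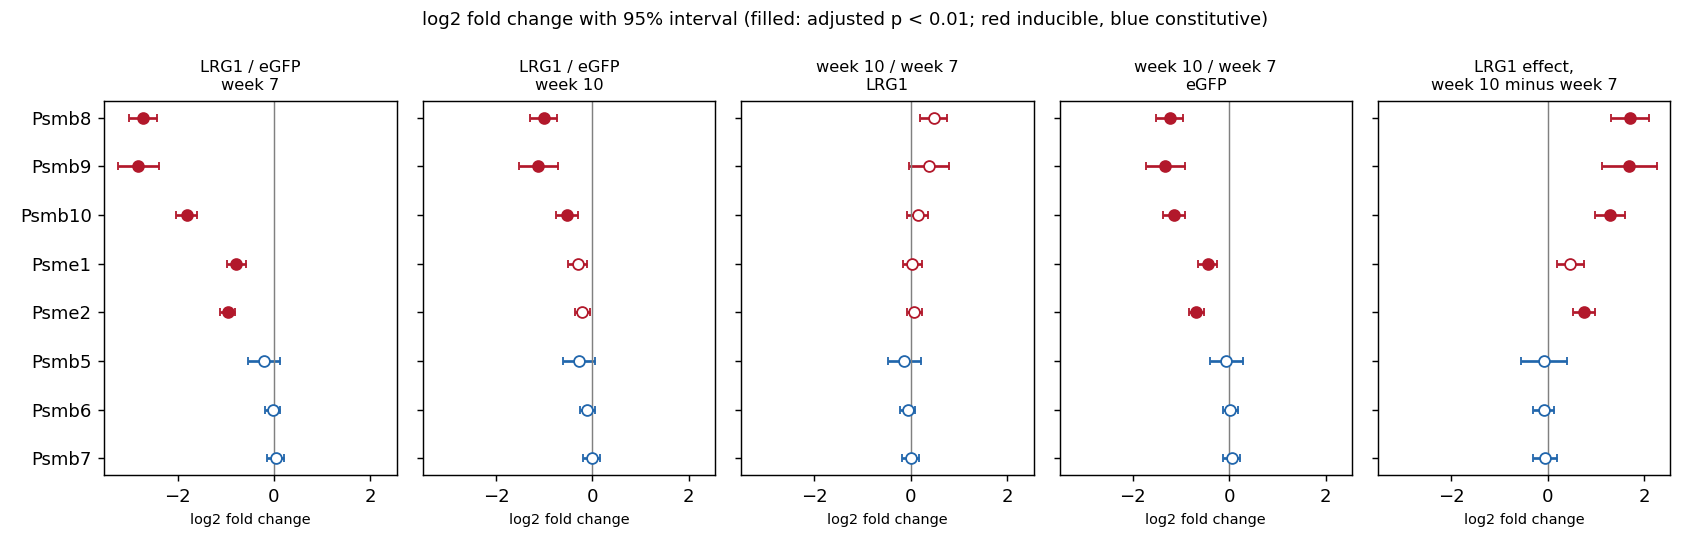
Log2 fold change of each gene with its 95% interval in 4 comparisons, and in the last panel the LRG1 effect of week 10 minus that of week 7. Filled points passed adjusted p below 0.01, red points are inducible and blue points constitutive genes. The inducible genes lie left of 0 in LRG1 mice at both weeks and in eGFP mice between weeks, down to -2.82 for Psmb9 at week 7, and the constitutive genes lie near 0.

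The replacement pairs were then set against each other within each library, which does not depend on how libraries are scaled. Levels per kilobase were used, with the length given for each gene in the table (the union of its exons, 3381 bases for Psmb8 but 899 for Psmb5). The share, and the size of its change in percent, depend on these lengths. The fold change of the ratio between groups does not. Psmb8 made up 16.3% ± 2.44 of the summed level of Psmb8 and Psmb5 in LRG1 mice of week 7 and 52.6% ± 5.27 in eGFP mice (SD, n = 4 each). Psmb9 made up 2.93% ± 0.557 of Psmb9 and Psmb6 in LRG1 mice and 17.2% ± 3.63 in eGFP mice. Psmb10 made up 35.6% ± 2.29 of Psmb10 and Psmb7 in LRG1 mice and 66.5% ± 1.72 in eGFP mice. Per kilobase, Psmb10 was thus at 1.80 to 2.13 times its constitutive counterpart in eGFP mice of week 7 and at 0.484 to 0.607 times in LRG1 mice. The excess in eGFP mice rests on the lengths. Before division by length, their counts were 3300, 3307, 2812 and 3308 for Psmb10 and 3160, 3380, 3141 and 3122 for Psmb7. Over the 3 pairs summed, the inducible share was 14.2% to 18.1% in LRG1 mice and 42.0% to 48.9% in eGFP mice.

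At week 10 the inducible share was 22.97% ± 2.56 for Psmb8 in LRG1 mice and 33.7% ± 5.57 in eGFP mice, 3.91% ± 0.648 for Psmb9 in LRG1 mice and 7.66% ± 1.28 in eGFP mice, and 38.0% ± 1.59 for Psmb10 in LRG1 mice and 46.6% ± 1.52 in eGFP mice. The log2 of the ratio was tested over 3 pairs and 4 comparisons with an exact two-sided permutation test. In 10 of these 12 the libraries did not overlap and p was 0.029 (adjusted over the 12, 0.034), the smallest value that 4 against 4 libraries allow. How often ratios of other gene pairs do not overlap was not computed. Of single genes, 19.4% at week 7 and 10.1% at week 10 did not overlap in the lower direction. Between the weeks, 6.89% were lower without overlap in eGFP mice and 3.64% higher in LRG1 mice. At week 7 the log2 ratio of LRG1 mice lay below that of eGFP mice by 2.52 (SE 0.20) for Psmb8 to Psmb5, by 2.77 (SE 0.23) for Psmb9 to Psmb6 and by 1.85 (SE 0.09) for Psmb10 to Psmb7. At week 10 it lay below by 0.77 (SE 0.21), 1.03 (SE 0.19) and 0.51 (SE 0.07) for the same pairs. Between week 10 and week 7 of eGFP mice the difference was -1.14 for Psmb8 to Psmb5, -1.31 for Psmb9 to Psmb6 and -1.19 for Psmb10 to Psmb7. In LRG1 mice the ratio of Psmb8 to Psmb5 was higher at week 10 than at week 7 by 0.62 (SE 0.17), which is 1 of the 10, while Psmb9 to Psmb6 (0.43, exact permutation p = 0.086, adjusted 0.094) and Psmb10 to Psmb7 (0.15, exact permutation p = 0.17, adjusted 0.17) overlapped. Without eGFP mice 1 and 3 of week 10 the differences were -1.06, -1.25 and -0.56 at week 10 and -0.84, -1.09 and -1.14 between the weeks of eGFP mice, for the pairs of Psmb8, Psmb9 and Psmb10, still without overlap. With 2 mice left in that group these were not tested.

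**Figure D3:**
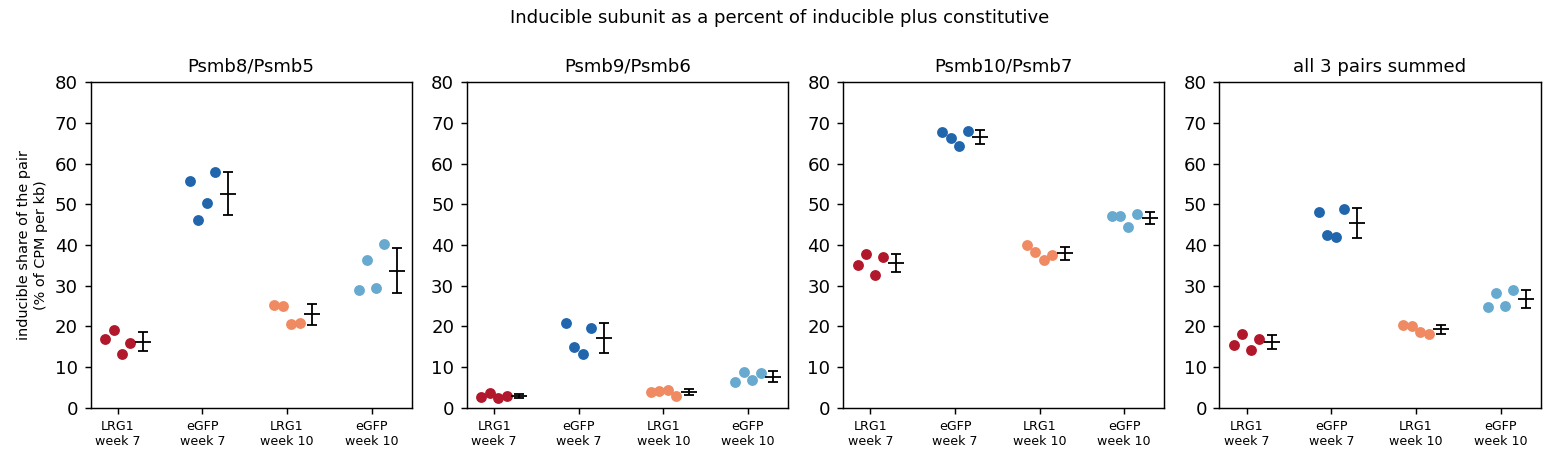
Level of the inducible subunit as a percent of the inducible plus the constitutive subunit, from CPM per kilobase, in each library (points) with the mean and SD of 4 mice (black). The share of Psmb10 is 64.2% to 68.0% in eGFP mice of week 7 and 32.6% to 37.8% in LRG1 mice of week 7, with the week 10 groups between 36.2% and 47.7%.

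The proportion of the PA28 subunits to each other moved less than that of the replacement pairs. Per kilobase, Psme1 was at 1.94 to 2.10 times Psme2 in LRG1 mice of week 7 and at 1.76 to 1.85 times in eGFP mice, which did not overlap and were not tested, and at 1.81 to 2.14 times in LRG1 mice of week 10 and 1.97 to 2.29 times in eGFP mice. By group means of the level per kilobase in eGFP mice of week 7, the order of the 8 genes was Psme1 (56.4), Psmb6 (33.6), Psme2 (31.6), Psmb10 (28.8), Psmb8 (17.3), Psmb5 (15.6), Psmb7 (14.4) and Psmb9 (7.00). This order depends on the gene lengths used. The range of Psme2 overlapped those of its neighbours Psmb6 and Psmb10, and Psmb8, Psmb5 and Psmb7 overlapped among themselves. In LRG1 mice of that week Psmb8 (2.64) and Psmb9 (0.993) came last, below Psmb10 (8.19), and Psme1 (32.8) and Psmb6 (32.9) were level at the top.

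The rest of the proteasome gives the background to these changes. At week 7, 4 of 7 alpha subunits of the core barrel fell in LRG1 mice (median log2 fold change -0.34), and they were Psma5 (-0.56, SE 0.12, adjusted p = 0.0025), Psma1 (-0.48), Psma7 (-0.37) and Psma4 (-0.34). Of the 4 structural beta subunits Psmb4 fell (-0.32, adjusted p = 0.0041) and 3 did not pass (median -0.29). None of 6 ATPase subunits (median -0.09) or 15 non-ATPase subunits (median -0.15) of the regulatory cap passed by edgeR. By unadjusted p below 0.05 these lists had 2 and 2 lower genes, DESeq2 called none of the ATPase and 1 of the non-ATPase subunits, and limma-voom none. Over all 20822 genes, edgeR gave 3442 lower even at adjusted p below 0.05, and DESeq2 called 2806 lower. Of the other activators, the inhibitor and tissue-specific subunits, 4 of 5 could be tested, and 0 passed by edgeR, DESeq2 or limma-voom, with 1 higher by unadjusted p. Of 7 genes for assembly and transcription 3 fell by edgeR and 0 rose. These 3 were the assembly chaperones Psmg4 (-0.82, SE 0.11, adjusted p = 9.2e-05) and Pomp (-0.31, adjusted p = 0.0019), the proteasome maturation protein, and the transcription factor gene Nfe2l2 (-0.47, adjusted p = 0.0054). In this list 4 genes were lower and 2 higher by unadjusted p below 0.05. DESeq2 called 3 lower and 2 higher, and limma-voom 3 lower. The highest log2 fold change of the list was 0.36. Among these lists the lowest called value was -0.82, whereas Psmb8, Psmb9 and Psmb10 were at -1.81 or lower. The PA28 subunits were not set apart in this way, with Psme2 at -0.96 and Psme1 at -0.78.

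At week 10 none of the 7 alpha, 4 structural beta, 6 ATPase or 15 non-ATPase subunits, and none of the other activators, passed by edgeR. Medians were -0.26, -0.21, -0.10, -0.07 and 0.06. Unadjusted p was below 0.05 for 6, 3, 1, 2 and 1 genes, DESeq2 called 1 alpha subunit, and limma-voom none. Over all 20822 genes, edgeR gave 2615 lower and 2146 higher even at adjusted p below 0.05, and DESeq2 called 1940 lower. In the same order, the list medians without eGFP mice 1 and 3 were -0.06, -0.14, -0.03, 0.03 and 0.06. No gene of these lists passed by edgeR in that fit. Of the assembly and transcription genes Nfe2l1, a transcription factor of proteasome genes, rose (0.47, SE 0.10, adjusted p = 0.0059) and Nfe2l2 fell (-0.50, adjusted p = 0.0071), and without eGFP mice 1 and 3 neither was called by edgeR. Between week 10 and week 7, 0 genes of these 6 lists were called by edgeR, DESeq2 or limma-voom in LRG1 or in eGFP mice. By unadjusted p below 0.05, no list had more than 2 genes in either group.

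**Figure D4:**
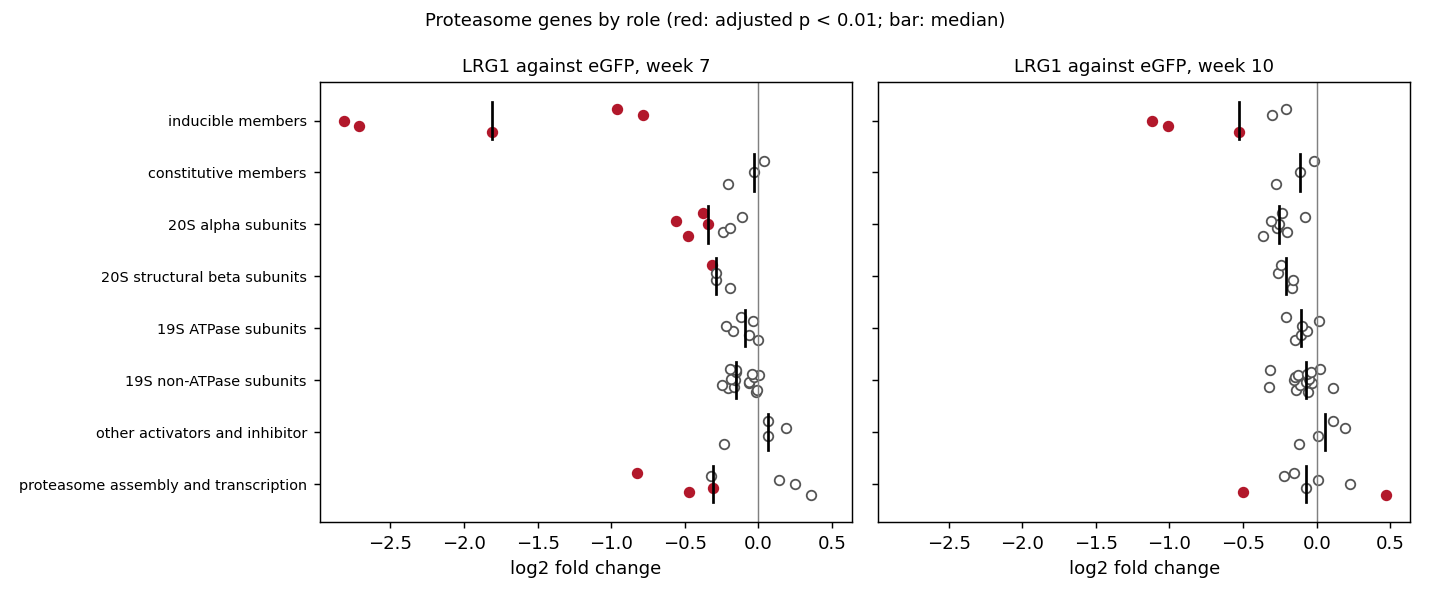
Log2 fold change of LRG1 over eGFP mice for the genes of each part of the proteasome at week 7 (left) and week 10 (right), with the median of a list as a bar and genes at adjusted p below 0.01 in red. At week 7 the 5 inducible genes have a median of -1.81 and the 7 alpha subunits one of -0.34, and at week 10 the inducible median is -0.53.

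Genes that handle the peptides downstream fell as well. At week 7, 7 of 11 genes of class I peptide processing and loading fell in LRG1 mice and 0 rose (median -0.82). Nlrc5, the transactivator of class I genes, was at -1.63 (SE 0.10, adjusted p = 5.0e-08), Tap1, the peptide transporter subunit next to Psmb9, at -2.76 (SE 0.19, adjusted p = 1.0e-07) and Tap2 at -1.52 (adjusted p = 8.3e-07). Of 8 genes of interferon-gamma signalling 6 fell (median -0.94), among them the transcription factor gene Irf1 (-1.76, SE 0.18, adjusted p = 4.1e-06). Ifng itself fell too (adjusted p = 4.5e-05), at 0 to 5 counts per library in LRG1 mice and 49 to 118 counts in eGFP mice. At week 10, Tap1 (-0.94, adjusted p = 0.0030) and Nlrc5 (-0.47, adjusted p = 0.0044) were the 2 of 11 class I genes that fell by edgeR, where DESeq2 called 6 lower, limma-voom 2, and 8 were lower at unadjusted p below 0.05. With eGFP mice 1 and 3 left out, 0 of 11 passed by edgeR (median -0.23). None of the 8 signalling genes passed by edgeR or limma-voom, with 5 lower by unadjusted p and 2 called lower by DESeq2. In eGFP mice of week 10 against week 7, 5 of 11 class I genes fell (Tap1 -1.49, Nlrc5 -0.95, Tap2 -0.90, Tapbpl -0.78 and Tapbp -0.59), and 3 of 8 signalling genes did (among them Irf1 at -1.09 and Ifng). Ifng was at 8 to 16 counts in eGFP libraries of week 10. In the test of the difference between weeks, Nlrc5 (1.16, adjusted p = 5.4e-04), Tap1 (1.82, adjusted p = 0.0014), Tap2 (1.18, adjusted p = 0.0034) and Tapbp (0.67, adjusted p = 0.0064) passed together with the 4 members.

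The inducible members were also alike across libraries. Over the 16 libraries, the log2 CPM of the 10 inducible pairs correlated at 0.93 to 0.99 (Pearson), the 3 constitutive pairs at 0.35 to 0.73 and the 15 mixed pairs at -0.07 to 0.44. As deviations from the group means, where differences between groups play no part, the inducible pairs were at 0.38 to 0.87, the constitutive pairs at 0.47 to 0.70 and the mixed pairs at -0.15 to 0.77, ranges that overlap. Outside the members, the genes most like the mean of the inducible ones were Tap1 (r = 0.99), the interferon-inducible guanylate-binding protein genes Gbp2 (0.99) and Gbp7 (0.99), Ly86 (0.99), which encodes the MD-1 protein of leukocytes, and the ADP-ribosyltransferase gene Parp10 (0.99). The genes most like the mean of the constitutive ones were Ncstn (0.94), which encodes a gamma-secretase subunit, Asna1 (0.91), Ube2m (0.91), the conjugating enzyme of NEDD8, Smdt1 (0.89), a regulator of the mitochondrial calcium uniporter, and Ndufv2 (0.89), a subunit of complex I. These are descriptions over 16 libraries that share group differences and scaling.

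Markers of cell types moved with part of these results. At week 7 all 10 pan-leukocyte markers fell in LRG1 mice (median log2 fold change -1.54), as did 9 of 10 macrophage markers (-1.34), 10 of 10 T cell markers (-3.04), 5 of 7 natural killer and cytotoxic markers (-2.42) and 4 of 7 dendritic cell markers (-0.85). Of the B and plasma cell markers 0 of 5 tested passed by edgeR, DESeq2 or limma-voom, or at unadjusted p below 0.05. The pan-leukocyte markers summed to 454 to 649 CPM in LRG1 mice and 1490 to 1847 CPM in eGFP mice, and none of the 10 was at 0 in any library. Of mature adipocyte markers 1 of 10 rose by edgeR (median 0.58), of endothelial markers 4 of 6 (0.88) and of fibroblast and progenitor markers 1 of 6 (0.37). By unadjusted p below 0.05, 8, 6 and 4 of these were higher. DESeq2 called 3, 5 and 3 higher, and limma-voom 1, 4 and 1. At week 10, 10 of 10 pan-leukocyte (-1.27), 9 of 10 macrophage (-1.02), 4 of 10 T cell and 2 of 7 dendritic cell markers fell, 2 of 10 adipocyte markers rose, and 0 of 7 natural killer, 0 of 5 B cell, 0 of 6 endothelial and 0 of 6 fibroblast markers passed by edgeR. For these 4 lists unadjusted p was below 0.05 for 3, 1, 5 and 0 markers, DESeq2 called 1, 1, 2 and 0, and limma-voom 0, 1, 0 and 0. Without eGFP mice 1 and 3, 1 of 10 pan-leukocyte (median -0.64), 5 of 10 macrophage (-0.77), 0 of 10 T cell (-1.50) and 0 of 7 dendritic cell markers (-0.43) fell by edgeR, and 1 of 10 adipocyte markers rose. Without those mice the median of the adipocyte markers was 0.04, against 0.48 with all libraries. For the endothelial markers it was 0.33 against 0.65, and for the fibroblast markers -0.15 against 0.02. The part of the cell type markers in the fall of the inducible members in LRG1 mice was not tested.

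Set against the pan-leukocyte sum, the members did not share one pattern. Per 1000 CPM of these markers, Psmb8 was at 14.9 to 17.5 CPM in LRG1 mice of week 7 and at 29.99 to 41.8 CPM in eGFP mice, and Psmb9 at 5.72 to 7.26 CPM in LRG1 mice and 11.9 to 19.2 CPM in eGFP mice, with no overlap for either. Psmb10 was at 22.3 to 28.6 CPM in LRG1 mice and 26.6 to 35.1 CPM in eGFP mice, which overlapped. Psme1, at 114 to 167 CPM in LRG1 mice and 68.0 to 86.0 CPM in eGFP mice, and Psme2, at 46.9 to 64.7 CPM in LRG1 mice and 30.7 to 39.1 CPM in eGFP mice, were higher per leukocyte marker in every LRG1 library. These shares were computed after the values had been seen and were not tested. The constitutive genes were higher per leukocyte marker in every LRG1 library as well, for instance Psmb5 at 19.7 to 27.3 CPM in LRG1 mice and 8.11 to 9.29 CPM in eGFP mice. At week 10 Psmb8 (19.6 to 25.1 CPM in LRG1 mice and 12.1 to 27.8 CPM in eGFP mice), Psmb9 (7.27 to 11.2 CPM in LRG1 mice and 4.48 to 13.5 CPM in eGFP mice), Psmb10 (23.2 to 31.9 CPM in LRG1 mice and 11.1 to 26.5 CPM in eGFP mice) and Psme1 (113 to 167 CPM in LRG1 mice and 42.7 to 116 CPM in eGFP mice) overlapped per 1000 CPM of markers. Psme2 (47.4 to 62.6 CPM in LRG1 mice and 17.3 to 44.0 CPM in eGFP mice) and the 3 constitutive genes were higher in every LRG1 library. The overlap of Psmb8 and Psmb9 came from eGFP mice 1 and 3. Mice 2 and 4 of eGFP were at 27.8 and 27.0 CPM for Psmb8 and at 13.5 and 12.4 CPM for Psmb9, above every LRG1 library. For Psmb10 (26.5 and 25.0 CPM) and Psme1 (116 and 104 CPM) mice 2 and 4 still overlapped with LRG1 mice.

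Between the weeks of eGFP mice some T cell markers and some natural killer or cytotoxic markers fell together with the inducible members. Of 10 T cell markers 2 fell by edgeR (median -1.53), 5 by DESeq2 and 4 by limma-voom, and 9 were lower at unadjusted p below 0.05. Of 7 natural killer and cytotoxic markers 2 fell by edgeR (median -1.27), 3 by DESeq2 and 3 by limma-voom. They did not all move one way, since 4 were lower and 1 was higher at unadjusted p below 0.05, with log2 fold changes up to 0.76. Of 7 dendritic cell markers 1 fell by edgeR (list median -0.54), while 1 of 5 B and plasma cell markers rose (list median 1.82). All 5 of these B and plasma cell markers were higher at unadjusted p below 0.05, and DESeq2 and limma-voom each called 1. Of the pan-leukocyte markers 1 of 10 fell (median -0.22) and of the macrophage markers 1 of 10 (-0.33), but without mice 1 and 3 of week 10 these were 8 of 10 (-0.81) and 6 of 10 (-0.56). Without those mice 4 of 10 adipocyte (median 0.39) and 2 of 6 endothelial markers (0.65) rose, against 0 and 0 with all libraries (0.14 and 0.28). Of 6 fibroblast markers 2 rose and 1 fell without them (0.36), against 1 and 0 with all libraries (0.16). The inducible members had a median of -1.14 with all libraries and -1.13 without those mice. The T cell markers summed to 21.8 to 32.1 CPM in eGFP mice of week 10 and to 44.7 to 88.5 CPM in eGFP mice of week 7, and the natural killer and cytotoxic markers to 18.8 to 20.2 CPM at week 10 and 27.4 to 64.9 CPM at week 7, without overlap. Their part in the fall of the inducible members was not tested. In eGFP mice 1 and 3 of week 10, Psmb8, Psmb9 and Psmb10 summed to 53.2 and 60.6 CPM with pan-leukocyte markers at 1926 and 1888 CPM. In eGFP mice of week 7 the same sum was 106 to 151 CPM with pan-leukocyte markers at 1490 to 1847 CPM. Mice 2 and 4 of week 10, with pan-leukocyte markers at 786 and 965 CPM, had 53.3 and 62.2 CPM of the inducible subunits. Psmb5 was at 15.3 and 18.1 CPM in mice 1 and 3, and at 10.2 and 10.3 CPM in mice 2 and 4. Mitochondrial ribosomal RNA made up 29.2% ± 1.51 of counts in LRG1 mice of week 7 and 25.0% ± 0.863 in eGFP mice, and 26.9% ± 1.52 in LRG1 mice of week 10 and 26.2% ± 1.39 in eGFP mice (SD, n = 4 each). With the mitochondrial genes left out, 5 inducible genes at week 7 and 3 at week 10 were called.

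**Figure D5:**
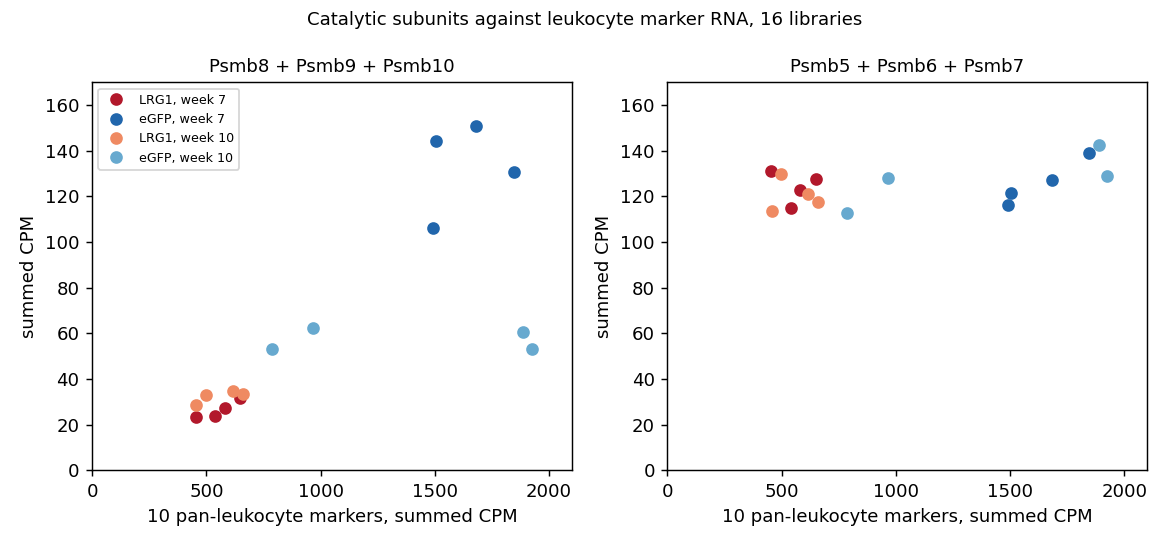
Summed CPM of the 3 inducible (left) and 3 constitutive (right) catalytic subunits against the summed CPM of 10 pan-leukocyte markers, 1 point for each of 16 libraries. The eGFP libraries of week 10 hold 53.2 to 62.2 CPM of the inducible subunits over 786 to 1926 CPM of markers, and the constitutive sum is at 113 to 143 CPM in all 16.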

How the data were processed

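Total RNA of eWAT from 16 mice had been sequenced. Per the labels and the study's methods, the authors used Cutadapt for trimming, STAR for alignment to mm10 (GRCm38) and featureCounts for counting. The deposited values are raw counts, not normalized, beside a length for each gene. Tool versions, the strand setting and whether read pairs were counted are not given in the sources used here. Whether reads on several genes were kept is not given either. Of 55573 Ensembl identifiers, 55394 were matched to a symbol and 179 were not.

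All 16 libraries entered 1 quasi-likelihood fit of edgeR 4.0.16 (R 4.3.3) with a coefficient for each of 4 groups. Libraries were scaled by TMM, genes low in every group were dropped by filterByExpr, and 20822 genes were left. P-values were adjusted over these genes by the Benjamini-Hochberg method and a gene was called below 0.01. Counts at unadjusted p below 0.05 are given for members and lists only, and the share of all genes at that rule was not computed. Dividing a log2 fold change by the root of its F statistic gave the SE. Group labels give replicate numbers, and each library is a separate mouse. The study assigned whole cages of 4 mice to a virus, and the cages of these mice are not given in the sources used here, so cage and virus cannot be told apart. Correlations used log2 CPM with a prior count of 2. Ratios used an exact two-sided permutation test. Each group held 4 libraries, and every member had at least 184 counts in every library. The part of count depth in the spread of the members was not tested.

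The members, gene lists and tests were chosen with earlier results of these data known. Named are all 8 members, the 3 called genes of a list with the smallest adjusted p (all if 5 or fewer were called), the 5 genes most correlated with each set of members, and Adipoq, Ptprc and Lrg1. The values of 1 listed gene are not reported here. Psme2b, shares of members per leukocyte marker, and the motifs searched were added after values were seen. The edgeR and permutation steps were tested on simulated data.

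Alternatives were DESeq2 1.42.0, limma-voom (limma 3.58.1), scaling by RLE, by the upper quartile or by library totals, other filters, the 8 libraries of a comparison alone, the replicate number as a block, adjusted p below 0.05, and each library left out in turn. Fits without mitochondrial genes, and without eGFP mice 1 and 3 of week 10, were added after seeing the data. Promoter windows were those of RefSeq (GRCm38.p6).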

Additional observations from a re-analysis of the deposited data

Results flagged for a closer look

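The LRG1 effect was not the same at both weeks for 4 of the 8 genes, by the interaction term of the edgeR fit. The term, the log2 fold change at week 10 minus that at week 7, was 1.70 for Psmb8, 1.70 for Psmb9, 1.29 for Psmb10 and 0.76 for Psme2, with adjusted p of 4.7e-04, 0.0051, 4.7e-04 and 0.0014. In all 4 genes the LRG1 libraries lay below the eGFP libraries at both weeks, and the gap was narrower at week 10.

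Over 44 groups of 4 values (the 8 genes and the 3 ratios in each group), 2 held a library far from the other 3, where chance gives about 5%. Psmb10 was at 39.7 CPM in eGFP mouse 3 of week 7, while the other 3 mice were at 51.3 to 52.8 CPM, a gap of 0.90 of the range of the group. The log2 ratio of Psmb10 to Psmb7 was -0.33 in eGFP mouse 3 of week 10, below the other 3 mice by 0.84 of the range of that group. Leaving out that library moved the call of Psmb10 at week 10 (adjusted p = 0.012).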

How the results depend on the processing

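Of 840 values of single members under the alternatives, 809 kept their call, 30 lost it, 1 gained it and none of the called values changed sign. In 40 cases a member that was not called changed sign. All 5 inducible genes were called lower at week 7 under every alternative run. Fitting only the 8 libraries of a comparison left 1 member called lower in LRG1 mice at week 10 (Psmb8, while Psmb9 was at adjusted p = 0.026 and Psmb10 at 0.028) and 3 called lower in eGFP mice between weeks (Psmb9 at 0.010, Psme1 at 0.071). This fit has fewer libraries for the spread. RLE scaling lost Psme1 in eGFP mice between weeks (adjusted p = 0.013). An adjusted p below 0.05 would add Psme1 at week 10. With the mean of the alpha subunits as the reference in place of the constitutive counterpart, the log2 ratio of Psmb8 in LRG1 mice between weeks was 0.40 (adjusted exact permutation p = 0.069) and that of Psmb10 at week 10 was -0.29 (0.069). The cause was not tested. Leaving out each library in turn gave 5 to 5 members lower at week 7, 2 to 3 at week 10, 4 to 5 in eGFP mice between weeks and 3 to 4 with a positive interaction term. At week 7 the log2 ratios then ranged over -2.65 to -2.41 for Psmb8 to Psmb5, -2.91 to -2.65 for Psmb9 to Psmb6 and -1.90 to -1.78 for Psmb10 to Psmb7.

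Replicate numbers did not pair the mice, since deviations of same-numbered libraries from their group means correlated at -0.20 to 0.14 over 24 pairs. With the number as a replicate block, Psme1 in eGFP mice between weeks (-0.45, adjusted p = 0.028) and the interaction term of Psmb9 (1.70, adjusted p = 0.020) were not called. The block gave 642 lower genes at week 10, 202 lower and 56 higher genes in eGFP mice between weeks, and 2 negative and 33 positive interaction terms over all genes.

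Counts over all genes moved more than the members. At week 10 they were 1092 lower and 762 higher, but 10 and 2 with only the 8 libraries, 1940 and 1573 by DESeq2, 2615 and 2146 at adjusted p below 0.05, 1136 and 320 under raw library totals, and 639 lower by limma-voom. Without LRG1 mouse 4 the lower genes were 125, and without eGFP mouse 2 they were 2046. At week 7 the higher genes were 2341 by DESeq2, 2581 with only the 8 libraries and 705 to 1128 with 1 library left out, and adjusted p below 0.05 gave 3442 lower and 3113 higher. In eGFP mice between weeks 315 fell and 131 rose, against 85 and 24 with only the 8 libraries, 604 and 443 by DESeq2, and 476 and 91 under raw library totals. In LRG1 mice DESeq2 called 22 lower and 29 higher genes between weeks. DESeq2 called 37 negative and 226 positive interaction terms, where edgeR called 4 and 64. Without eGFP mice 1 and 3 of week 10, all-gene counts were 74 lower and 87 higher at week 10, 1146 lower and 1063 higher in eGFP mice between weeks, and 182 negative and 284 positive interaction terms. The cause was not tested.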
